A study of Mus musculus with 16 samples.

Results

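Oxidative phosphorylation is carried out by 5 protein complexes of the inner mitochondrial membrane. Complexes I to IV pass electrons from NADH and succinate to oxygen and pump protons, and complex V, the ATP synthase, uses the proton gradient to make ATP. Most subunits are encoded in the nucleus and imported, while a small group of core subunits of complexes I, III, IV and V is encoded by the mitochondrial genome, which is transcribed as long precursors from both strands. Fibroblasts respire actively, and the change to pluripotency is known for a shift toward glycolysis.

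The members were the genes of these complexes in a table of 18990 mouse genes: nuclear genes named Nduf, Sdha to Sdhd, Uqcr, Cox4 to Cox8 or Atp5, and protein-coding genes of the mitochondrial genome, with a mean of at least 0 on the log2 CPM (read counts scaled to library size) scale over the 16 libraries. There were 93 members among 14028 genes tested: 86 nuclear and 7 mitochondrial. The nuclear members were 45 genes of complex I, 4 of complex II, 8 of complex III, 13 of complex IV and 16 of complex V. Complexes were assigned by the start of the symbol alone. By role, 19 were on a list of nuclear core subunits and 8 were assembly factors of complex I. The remaining 59 are called accessory subunits or isoforms here. They also hold, from complex V, the ring genes Atp5g1, Atp5g2 and Atp5g3, the stalk gene Atp5f1 and the coupling factor Atp5s. The symbols took in 99 genes, and 6 fell below the level threshold. Of these, Cox4i2 had a mean log2 CPM of -0.70, mt-Co2 -0.44 and Ndufa4l2 -0.92, while mt-Co3, mt-Atp6 and mt-Atp8 lay between -1.86 and -2.14. The lowest member, Cox7a1, the heart and skeletal muscle form of a complex IV subunit, had 0.24.

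The cells were primary mouse embryonic fibroblasts (MEFs) of the BL6 strain, wild-type, that were reprogrammed at passage 2. All groups carried lentiviruses for a doxycycline-inducible Oct4, Sox2, Klf4 and c-Myc cassette (tet-STEMCCA) and rtTA, were transfected with pooled siRNAs 1 day before induction, and were kept in medium with doxycycline, chiron, an Alk5 inhibitor, ascorbic acid and LIF. The 8 groups of 2 libraries were a non-targeting siRNA (nt), siWdr5, siBrca1 and siBard1, each collected at day 3 and at day 6. Whole cultures were sequenced after removal of ribosomal RNA, so each library averages fibroblasts that respond to the factors and fibroblasts that do not, and a change in the number of cells of one kind cannot be told apart from a change in RNA per cell. No uninduced fibroblasts were analysed here.

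Libraries held between 11169738 and 26832534 reads in genes. A single long RNA, Gm26917, took 11.4% to 21.7% of the reads. At day 3 all 3 knockdowns lowered their target against nt: Wdr5, a subunit of histone H3 lysine 4 methyltransferase complexes, fell from 132 and 130 CPM to 50.6 and 55.3, Brca1 from 82.4 and 78.0 to 37.5 and 19.4, and Bard1, its partner, from 30.5 and 29.1 to 18.01 and 20.8 (limma, adjusted p = 3.02e-06, 7.90e-05 and 0.0422). The knockdowns also lowered other targets at day 3. In siWdr5 Brca1 had a log2 fold change of -0.86 and Bard1 -1.03, and in siBrca1 Wdr5 had -0.87 and Bard1 -1.38, and in siBard1 Wdr5 had -0.48. At day 6 no target passed the test against nt (limma, adjusted p = 0.189 for Wdr5, 0.988 for Brca1 and 0.853 for Bard1). All 8 fibroblast markers were present, and their summed level was 5797 to 6725 CPM in nt at day 3 against 11448 to 11770 in siWdr5, 8569 to 9857 in siBrca1 and 7410 to 8631 in siBard1. At day 6 it was 3915 to 3942 CPM in nt, 7311 to 10386 in siWdr5, 4250 to 4839 in siBrca1 and 5759 to 5862 in siBard1. Col1a1, Col1a2 and Col3a1 made up most of this sum in nt and siWdr5. In nt Col1a1 fell from 3312 and 4043 CPM at day 3 to 1048 and 1016 at day 6. Dcn rose there from 31.7 and 30.4 CPM to 301 and 291. Of the muscle markers, 3 of 6 for skeletal and 2 of 4 for heart muscle were in the table, Myog, Myod1, Ckm, Myh6 and Nppa were not, and the summed heart list stayed between 0.824 and 3.65 CPM in every library. The 3 skeletal muscle genes in the table summed to 31.9 to 41.4 CPM in nt at day 3 and to 141 in siWdr5, 166 to 172 in siBrca1 and 76.4 to 90.4 in siBard1. Nearly all of this sum was Des in nt (30.7 and 40.1 CPM) and in siWdr5 (139 and 139), so it describes 1 gene there. Endothelial markers summed to 15.8 to 59.6 CPM, macrophage markers to 5.88 to 14.1 with Ptprc not in the table, and adipocyte markers to 2.33 to 24.5, the highest being in siBrca1 at day 3. The fibroblast sum was above nt in every knockdown at both days, also at day 6 in siBrca1 and siBard1, where 0 members were called, and its part in the knockdown results was not tested. The markers did not move together at day 6. In siBrca1, Dcn had a log2 fold change of -0.96, Lum -0.40, Thy1 -0.24 and Pdgfra -0.06. Negative too were Thy1 (-0.53), Dcn (-0.13) and Lum (-0.05) in siBard1, and Lum (-0.53) and Dcn (-0.52) in siWdr5. The other fibroblast markers were positive in each knockdown, and no fall was called.

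The mitochondrial genome was represented unevenly in the table. A window of 43 bases, the read length, was slid along each mitochondrial gene and looked for in the annotated transcripts of other loci (GENCODE mouse release 21, GRCm38), because a read that maps to several places is commonly dropped or split. Libraries were sequenced from both ends, and a pair can span more than 1 window. For mt-Nd1 and mt-Nd6, subunits of complex I, 0% of windows recurred elsewhere, and for mt-Cytb, the cytochrome b of complex III, 0.635%. The share was 9.54% for mt-Nd2, 10.55% for mt-Nd5, 55.1% for mt-Co1 and 62.4% for mt-Nd4. For mt-Co2, mt-Co3 and mt-Atp6 it was 100%, 99.9% and 99.5%.

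The genes with nearly all windows shared were also nearly without reads, together with mt-Atp8. The genes mt-Co2, mt-Co3, mt-Atp6 and mt-Atp8 held 198, 49, 40 and 32 reads over all 16 libraries, against 51315 for mt-Nd6, the lowest mitochondrial member, and 1414338 for mt-Co1, the highest. In mt-Co3, 741 of 742 windows were found in Gm28437 (chr1:24613189-24613971, GRCm38), one of a row of pseudogene copies of mitochondrial genes. The gene mt-Atp8 had 0.617% of windows in other annotated transcripts. It lies between mt-Co2 and mt-Atp6, and the matching chromosome 1 copies leave a stretch of 233 bases between Gm28661 and Gm10925 that no annotated transcript covers. How reads with several matches were counted is not given in the sources used here. The gene mt-Co1 shared 55.1% of windows and held the most reads, and the part of sharing in the low values was not tested. These 4 genes fell below the level threshold and enter no comparison. The following lines show a shared and an unshared window, printed 5′ to 3′ from the mitochondrial strand. The capitals mark bases that occur identically in the chromosome 1 copy, and the lower case line recurs in no other annotated transcript.
mt-Co3, chrM:8907-8949: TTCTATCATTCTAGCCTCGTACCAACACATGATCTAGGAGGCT
mt-Nd1, chrM:3051-3093: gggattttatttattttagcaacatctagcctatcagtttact

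**Figure D1:**
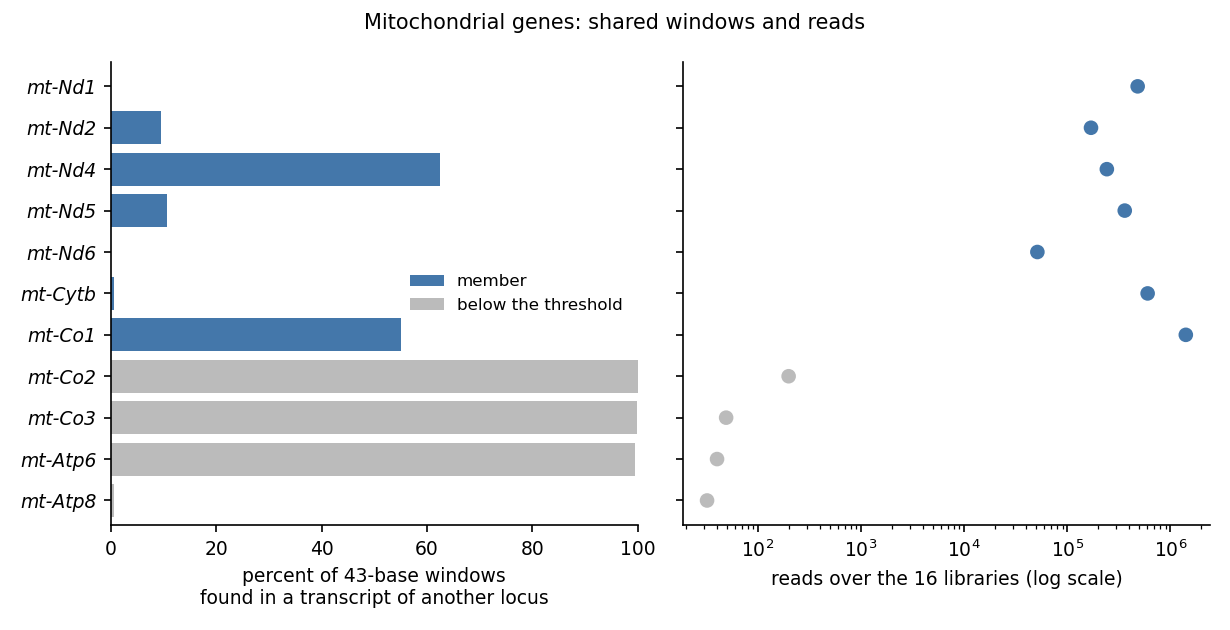
The left panel gives, for each mitochondrial gene, the percent of 43-base windows that occur in an annotated transcript of another locus, and the right panel its reads summed over the 16 libraries on a log axis, with members in blue and genes below the level threshold in grey. The 3 genes at 99.5% or more held 40 to 198 reads, whereas every member held at least 51315.

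Where the coding strand decides the identity of a gene, the counting leaves a further limit. The gene mt-Nd6 (chrM:13552-14070, minus strand) lies opposite to the strand that carries the other members and overlaps mt-Nd5 (chrM:11742-13565) at its end, and whether strand was used in counting is not given in the sources used here. Among the nuclear members, windows shared with other loci were most frequent for Atp5g2 (37.0%), Uqcrb (28.1%), Ndufs5 (23.4%) and Cox7c (22.8%), so that their levels are uncertain. Of the nuclear genes described in detail, Ndufb4 shared 18.6% of windows with other loci, Atp5g1 12.2% and Ndufs6 9.95%.

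The nuclear members covered a wide range of levels. In nt at day 3 their median was 65.1 CPM, and over all libraries the mean ran from 1.26 CPM for Cox7a1 to 1130 CPM for Atp5b, the catalytic beta subunit of the ATP synthase. Per kilobase of exon, the highest at day 3 in nt were Cox8a with 329 CPM, Atp5b with 326, Atp5a1 with 273 and Cox6b1 with 261. Among genes that encode forms of the same subunit, the broadly expressed form prevailed in these cells. On this scale Cox6b1 had 261 CPM per kilobase and the testis form Cox6b2 23.4, Cox7a2 113 and the muscle form Cox7a1 1.78, Cox4i1 176 and the lung form Cox4i2 0.491, and Ndufa4 79.0 and Ndufa4l2 0.566. The genes for the ring subunit c of the ATP synthase, which encode the same mature protein, had 80.5 for Atp5g3, 15.2 for Atp5g1 and 12.6 for Atp5g2. The scale divides by all annotated exon bases of a gene, 2181, 4912 and 1675 for these genes in that order, whichever transcripts are used. In reads, nt at day 3 held 2536 and 3220 for Atp5g3, 1174 and 1252 for Atp5g1, and 293 and 394 for Atp5g2.

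The first comparison asked how knockdown of each factor altered these genes early in reprogramming, at day 3. In siWdr5, 22 of the 86 nuclear members were lower than in nt and 0 were higher, where 16.8% of all genes tested were lower and 18.3% higher (limma, adjusted p under 0.05, two-sided). The median log2 fold change was -0.24 for the nuclear members and -0.04 for all genes. The lower genes were 12 of complex I, 1 of complex II, 5 of the 8 of complex III, 2 of complex IV and 2 of complex V, and they included 5 of the 8 assembly factors of complex I. Set against genes of their own transcript length, the excess was smaller below 1000 bases. Below 600 bases 8 of 30 members were lower, where 26.3% of all genes of that length were, with medians of -0.22 and -0.16. From 600 to 1000 bases 8 of 32 were lower against 21.3%, and from 1000 to 1600 bases 5 of 18 against 18.9%. Of the 7 mitochondrial members 0 were called, 2 had an unadjusted p under 0.05, and their median was 0.07.

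The member that fell most in siWdr5 was Cox6b2, the isoform of a complex IV subunit that is enriched in testis. Its levels were 12.8 and 12.8 CPM against 26.1 and 25.9 in nt, so the libraries of each group lay close together and far from the other group, and the log2 fold change was -1.02 (SE 0.14, adjusted p = 0.000171). It was the single member that also passed a fall of more than 1 on the log2 scale, a mark that 2.95% of all genes passed. Its ubiquitous counterpart Cox6b1 had 154 and 166 CPM against 171 and 197 and was not called (-0.20). Ndufaf3, an assembly factor of complex I, had 4.55 and 4.25 CPM against 9.24 and 8.18 (-0.98, SE 0.20, adjusted p = 0.00243). Ndufs6, a zinc-binding accessory subunit of complex I, had 25.1 and 27.8 CPM against 45.4 and 44.2 (-0.76, SE 0.17, adjusted p = 0.00327). In all 3 genes the groups did not overlap.

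Other members that fell in siWdr5 included nuclear core subunits of complexes I, II and III, beside accessory subunits and assembly factors. Sdhd, a membrane anchor of succinate dehydrogenase, had 76.3 and 90.7 CPM against 134 and 136, a log2 fold change of -0.70, while Sdha, Sdhb and Sdhc of the same complex had 0.06, -0.09 and -0.04 and were not called. Uqcrfs1, the Rieske iron-sulfur protein of complex III, had 79.3 and 93.7 CPM against 132 and 122 (-0.56), and Uqcrc2, a core protein of that complex, had -0.49. Ndufs8, a core subunit of complex I that holds iron-sulfur clusters, had 41.9 in both siWdr5 libraries against 63.1 and 64.5 (-0.61). The number of nuclear genes called fell when any 1 of the nt or siWdr5 libraries was left out. All 22 kept their sign, an outcome that is fixed in advance for a gene whose groups do not overlap.

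In siBrca1 at day 3, 34 nuclear members were lower and 1 was higher, against 21.8% lower and 25.4% higher among all genes. The median was -0.23 for the nuclear members and 0.00 for all genes. Lower genes were 15 of complex I, 2 of complex II, 7 of the 8 of complex III, 3 of complex IV and 7 of complex V. By role they took in 12 of the 19 nuclear core subunits, 18 of the 59 accessory subunits and isoforms and 4 of the 8 assembly factors. By transcript length, 13 of 30 members below 600 bases were lower against 28.5% of all genes of that length, 10 of 32 from 600 to 1000 bases against 24.2%, and 8 of 18 from 1000 to 1600 bases against 23.3%. Of the mitochondrial members 0 were called and 0 had an unadjusted p under 0.05, with a median of 0.17.

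Ndufaf4, an assembly factor of complex I, fell most in siBrca1, with 19.2 and 17.4 CPM against 33.4 and 38.1 in nt (-0.96, SE 0.13, adjusted p = 8.26e-05). Sdhd followed with 82.8 and 66.3 CPM against 134 and 136 (-0.87, SE 0.12, adjusted p = 0.000102). Ndufa5, an accessory subunit of complex I, had 28.3 and 19.3 CPM against 42.9 and 40.2 (-0.83, SE 0.16, adjusted p = 0.000707). The groups did not overlap in any of these genes, but the siBrca1 libraries differed from each other more than the nt libraries did in Sdhd and Ndufa5. The gene that rose was Ndufv3, an accessory subunit of complex I, with 45.8 and 49.7 CPM against 36.7 and 39.3 (0.33, SE 0.12, adjusted p = 0.0361). Cox6b2, the strongest fall in siWdr5, had 28.4 and 22.4 CPM, on both sides of the nt libraries, and a log2 fold change of -0.04. Leaving out an nt library reduced the nuclear calls from 35 to 16 (replicate 1) or 15 (replicate 2), and leaving out siBrca1 replicate 1 or 2 gave 38 or 20.

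Knockdown of Bard1 gave 9 lower nuclear members and 0 higher, where 5.87% of all genes were lower and 8.67% higher. The median was -0.17 for the nuclear members and -0.02 for all genes. The lower genes were 3 of complex I, 1 of complex II, 4 of the 8 of complex III and 1 of complex V. By the same length bins, 4 of 30, 1 of 32 and 3 of 18 were lower, against 8.68%, 5.93% and 6.29% of all genes. Ndufaf6, an assembly factor of complex I, had 6.03 and 6.995 CPM against 11.2 and 8.98 (-0.62, SE 0.19, adjusted p = 0.0416). Atp5g1, a gene for subunit c of the ATP synthase, had 57.2 and 48.2 CPM against 77.6 and 71.5 (-0.50, SE 0.16, adjusted p = 0.0470). Ndufs7, a core subunit of complex I, had 45.9 and 38.5 CPM against 57.3 and 59.2 (-0.47, SE 0.12, adjusted p = 0.0174). These calls depended on single libraries: 0 of the nuclear members were called without nt replicate 1, without nt replicate 2 or without siBard1 replicate 2, and 12 without siBard1 replicate 1.

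Of the mitochondrial members, mt-Nd5 was higher in siBard1 at day 3. Its levels were 1273 and 1628 CPM against 1123 and 887 in nt, a log2 fold change of 0.53 (SE 0.17, adjusted p = 0.0470), with no overlap but with a wide gap between the siBard1 libraries. Of the mitochondrial members 0 were called without nt replicate 1, without nt replicate 2 or without siBard1 replicate 2. The same libraries had 3852 and 4761 CPM of mt-Co1 against 3815 and 3171 in nt (0.30, adjusted p = 0.273).

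The knockdowns shared the nt libraries, so their calls against nt are not independent of each other. At day 3, 37 nuclear members were lower in at least 1 knockdown, 15 of them in 1, 16 in 2 and 6 in all 3, which is 17.4%, 18.6% and 6.98% of the nuclear members. Of all genes tested 13.7% were lower in 1, 9.79% in 2 and 3.73% in all 3, and of those with transcripts below 1000 bases 15.6%, 12.8% and 4.22%. The 6 were Ndufaf6, Ndufc2 and Ndufs7 of complex I, Sdhd of complex II, and Uqcr10 and Uqcrfs1 of complex III. For Uqcrfs1 the siWdr5, siBrca1 and siBard1 libraries held 79.3 and 93.7, 91.5 and 84.5, and 97.4 and 97.8 CPM, all below the nt libraries at 132 and 122.

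**Figure D2:**
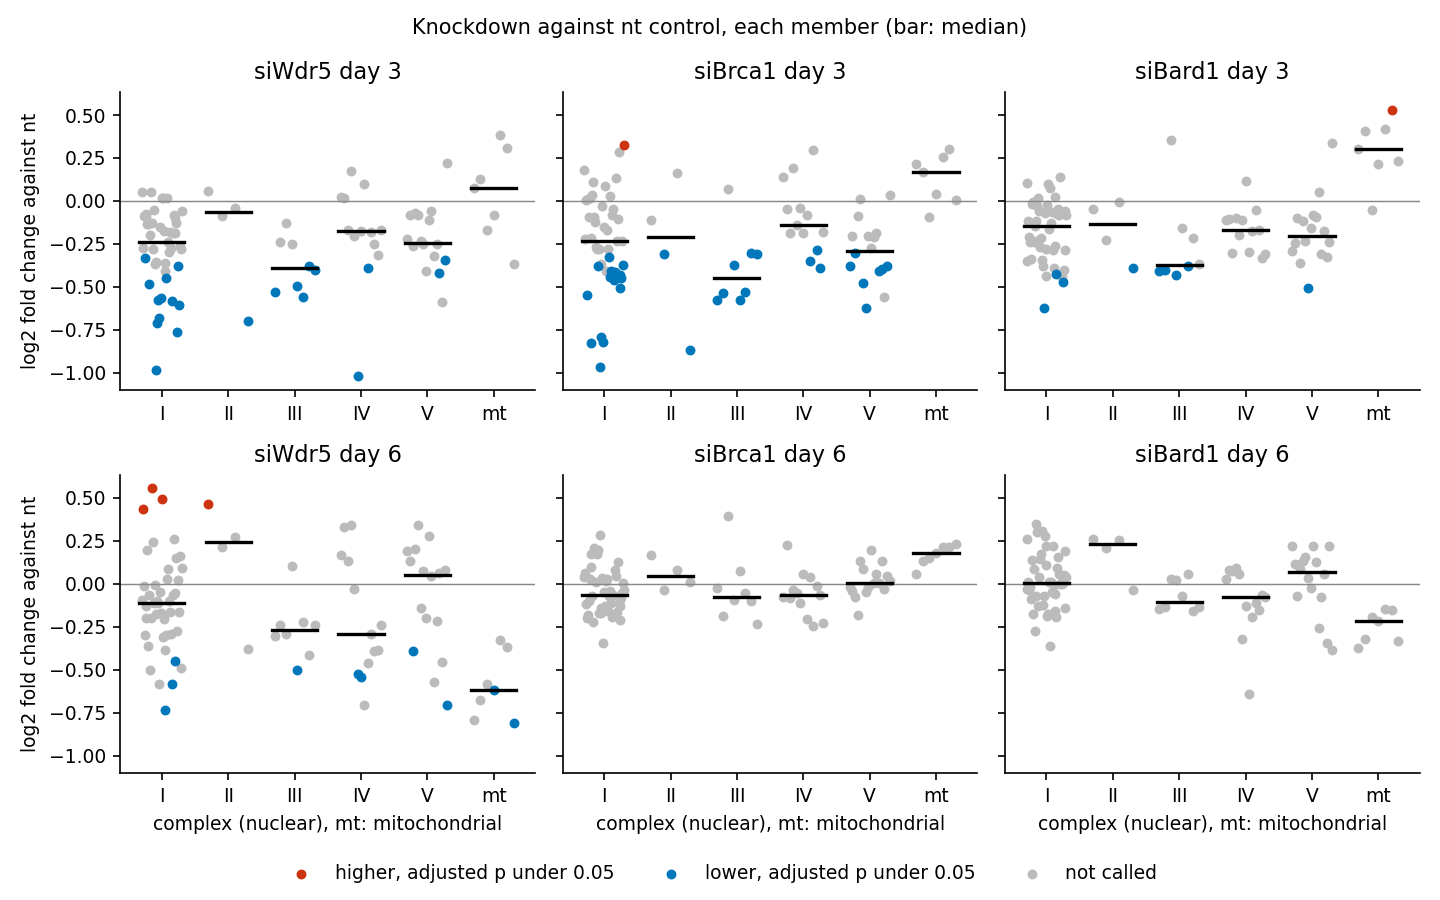
Each point is the log2 fold change of 1 member against nt in the named knockdown and day, arranged by complex for nuclear members and with mitochondrial members (mt) apart; bars are medians, and blue and red mark genes lower or higher at an adjusted p under 0.05. At day 3 the blue points number 22, 34 and 9 in siWdr5, siBrca1 and siBard1, whereas at day 6 siBrca1 and siBard1 have none.

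Direct contrasts between knockdowns, which do not use nt, separated few members. In siBrca1 against siWdr5 at day 3, 4 members were higher and 0 lower, where 10.2% of all genes were higher and 5.47% lower. They were Cox6b2 with a log2 fold change of 0.98 (SE 0.14, adjusted p = 0.000729), Ndufaf3 with 0.70, Cox7a2l, which takes part in joining complexes III and IV, with 0.48, and Ndufv3 with 0.39. In siBrca1 against siBard1, 1 member was higher and 6 were lower, against 13.1% and 8.33% of all genes. Ndufv3 was the higher one (0.41), and the lower ones were Ndufaf4 (-0.62), Ndufa5 (-0.59), Ndufb2 (-0.51), Sdhd (-0.47), Uqcrc2 (-0.42) and Ndufs1 (-0.34). In siWdr5 against siBard1, 0 members were higher and 3 were lower, against 4.85% and 3.78%. These were Cox6b2 (-0.91, SE 0.14, adjusted p = 0.00205), Ndufaf3 (-0.77) and, from the mitochondrial genome, mt-Nd6 (-0.60), which had 99.5 and 114 CPM in siWdr5 against 157 and 167 in siBard1. The counts moved with single libraries. In siBrca1 against siWdr5 they were 1 or 2 without siWdr5 replicate 1 or 2 and 11 without siBrca1 replicate 1. In siBrca1 against siBard1 they were 13 or 2 without siBrca1 replicate 1 or 2, and 4 or 0 without siBard1 replicate 1 or 2. In siWdr5 against siBard1 they were 1 without either siWdr5 library. Cox6b2 in siWdr5 thus lay below each of the other knockdowns as well as below nt.

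Promoters of the nuclear members were searched for the letters of motifs known from respiratory genes, in a window from 250 bases before to 50 bases after the start in RefSeq (GRCm38.p6), on both strands. A promoter was matched for 74 of the 86. The letters GCATGCGC of nuclear respiratory factor 1 were in 12 of them (16.2%), against 6.03% of the 10120 tested genes with a promoter. AAGATGGC of YY1 was in 11 (14.9% against 5.18%), and TCAAGGTCA of the estrogen-related receptors in 2 (2.70% against 0.277%). CCGGAAGT of the ETS family, to which GABPA belongs, was in 5 (6.76% against 9.02%) and CACGTG, an E-box, in 6 (8.11% against 11.8%). NRF1 and GABPA are the textbook activators of respiratory chain genes, and the ERR proteins act with the PGC-1 coactivators. These shares describe letters in a window and were not tested.

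Promoters of 4 members that were lower at day 3 are printed because each holds a different one of these motifs. Ndufaf4 fell most in siBrca1, Sdhd and Ndufs7 were lower in all 3 knockdowns, and Uqcr11, an accessory subunit of complex III, was lower in siBrca1 and siBard1. Capitals mark the motif letters, on whichever strand they lie. In Ndufaf4 the NRF1 letters start 113 bases before the transcription start on one strand and 111 on the other, overlapping, and occur again at the start. Sdhd holds the ERR letters on the reverse strand 36 bases after the start, Uqcr11 the ETS letters 66 and the NRF1 letters 4 bases before it, and Ndufs7 the YY1 letters 24 bases after it.
Ndufaf4, chr4:24897833-24898132, plus strand: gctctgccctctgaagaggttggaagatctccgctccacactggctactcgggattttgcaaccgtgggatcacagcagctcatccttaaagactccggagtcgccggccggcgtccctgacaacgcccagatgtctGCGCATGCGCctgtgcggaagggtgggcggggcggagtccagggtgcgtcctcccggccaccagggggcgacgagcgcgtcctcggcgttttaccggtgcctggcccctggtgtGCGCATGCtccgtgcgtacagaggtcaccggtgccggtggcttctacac
Sdhd, chr9:50603800-50604099, minus strand: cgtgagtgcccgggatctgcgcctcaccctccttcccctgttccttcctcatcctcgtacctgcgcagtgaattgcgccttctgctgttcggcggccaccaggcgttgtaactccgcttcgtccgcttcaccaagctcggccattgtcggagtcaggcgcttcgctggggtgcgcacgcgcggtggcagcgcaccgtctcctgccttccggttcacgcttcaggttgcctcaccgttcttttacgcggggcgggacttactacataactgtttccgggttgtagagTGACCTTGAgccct
Uqcr11, chr10:80406772-80407071, minus strand: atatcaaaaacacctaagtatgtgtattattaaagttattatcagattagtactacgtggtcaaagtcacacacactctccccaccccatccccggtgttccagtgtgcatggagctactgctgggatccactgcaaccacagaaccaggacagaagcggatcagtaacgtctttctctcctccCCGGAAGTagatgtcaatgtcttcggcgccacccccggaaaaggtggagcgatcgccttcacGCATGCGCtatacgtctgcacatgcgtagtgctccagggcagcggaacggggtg
Ndufs7, chr10:80249199-80249498, plus strand: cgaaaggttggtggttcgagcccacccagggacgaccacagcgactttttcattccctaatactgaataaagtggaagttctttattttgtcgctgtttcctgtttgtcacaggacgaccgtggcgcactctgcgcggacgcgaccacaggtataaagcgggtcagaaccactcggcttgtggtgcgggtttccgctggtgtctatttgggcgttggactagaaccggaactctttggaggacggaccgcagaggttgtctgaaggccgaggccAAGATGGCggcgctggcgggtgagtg

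The regulators themselves and the genes around the complexes were read from lists of 8 biogenesis regulators, 24 genes of mitochondrial gene expression, 7 other electron transport genes and 39 further assembly factors. At day 3, 3 of the 8 regulators were lower in siWdr5, 4 in siBrca1 and 4 in siBard1, and 0 were higher. Ppargc1b, the PGC-1 beta coactivator, had log2 fold changes of -0.997, -1.18 and -0.84 in siWdr5, siBrca1 and siBard1. Nrf1 had -0.51, -0.60 and -0.45, and Esrra, an estrogen-related receptor, -0.34, -0.40 and -0.47. The genes of mitochondrial gene expression were lower in 8, 17 and 4 of 24 cases and higher in 0. Tfam, which packages mitochondrial DNA and starts its transcription, had -0.67 in siWdr5 and -0.82 in siBrca1, and Fastkd2, which acts on mitochondrial RNA, had -0.997 and -0.99. Among the other electron transport genes, Cyc1, the cytochrome c1 of complex III that the naming rule does not take in, was lower in all 3 (-0.36, -0.64 and -0.52), and Cycs, cytochrome c, was lower in siWdr5 (-0.56) and siBrca1 (-0.94). That list had 2 lower genes in each of these knockdowns and 1 in siBard1. It had 1 higher gene in siBrca1, Etfb (0.47), and 1 in siBard1, Coq10b (0.85). Of the 39 assembly factors 11, 8 and 2 were lower and 1, 0 and 0 higher in siWdr5, siBrca1 and siBard1, with Nubpl, an iron-sulfur carrier for complex I, at -1.09 in siWdr5 and Coa7, which acts in complex IV assembly, at -1.16 in siBrca1. Beside the shares of all genes lower at day 3 (16.8%, 21.8% and 5.87%), the assembly factors were near the background in siBrca1 and siBard1.

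The same comparisons at day 6 gave a different picture for each knockdown. In siWdr5, 4 nuclear members were higher and 8 lower, where 16.1% of all genes were higher and 5.7% lower. The median was -0.14 for the nuclear members and 0.08 for all genes. This split depended on the scale. Libraries were then scaled to the reads of nuclear genes, with mitochondrial and ribosomal RNA genes left out. The median of all genes moved by -0.14, and 0 nuclear members were higher and 17 lower. The deposited scale also uses a factor per library, its effective size over its reads in genes, which this alternative dropped. These factors were 1.03 and 0.976 in siWdr5 and 1.07 and 1.11 in nt at day 6. The parts of the factors and of the genes left out were not tested. After centring of the libraries on their median genes, 2 were higher and 10 lower. Calls also depended on single libraries, with 0 nuclear members called without either nt library or without siWdr5 replicate 2, and 4 without siWdr5 replicate 1.

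Ndufb4, an accessory subunit of complex I, fell most in siWdr5 at day 6, with 13.2 and 15.5 CPM against 24.0 and 23.6 in nt (-0.73, SE 0.14, adjusted p = 0.00850). Atp5s, a factor coupled to the ATP synthase, had 5.79 and 5.10 CPM against 9.49 and 8.27 (-0.71, SE 0.18, adjusted p = 0.0236). Ndufc2, an accessory subunit of complex I, had -0.58, as at day 3, and Cox6b2 had 27.6 and 27.4 CPM against 39.3 and 39.9 (-0.53). The higher genes on the deposited scale were Ndufa8 with 59.2 and 65.6 CPM against 48.3 and 37.3 (0.56, SE 0.17, adjusted p = 0.0438), Ndufb10 with 0.49, Sdha, the catalytic subunit of complex II, with 167 and 191 CPM against 133 and 127 (0.46), and Ndufa10 with 0.43. Groups did not overlap in the genes whose library values are given.

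Of the 7 mitochondrial members 2 were lower in siWdr5 at day 6 and 0 higher, with a median of -0.62. The gene mt-Nd6 had 208 and 164 CPM against 350 and 300 in nt, a log2 fold change of -0.81 (SE 0.15, adjusted p = 0.00743), and mt-Nd2 had 582 and 626 against 960 and 893 (-0.62, SE 0.18, adjusted p = 0.0345). The other members did not pass. They ran from mt-Co1 with 4985 and 5345 CPM against 9062 and 8799 (-0.79, adjusted p = 0.0928) to mt-Nd4 with 865 and 1065 against 1238 and 1173 (-0.33, adjusted p = 0.254). Without nt replicate 1 or siWdr5 replicate 2 the number of mitochondrial calls was 0, and without nt replicate 2 or siWdr5 replicate 1 it was 1. Residual mitochondrial ribosomal RNA, left after depletion, moved with this comparison: mt-Rnr2 was at 18.1 and 24.0 CPM in siWdr5 and at 143 and 312 in nt. Its part in the result was not tested. At day 3 mt-Rnr2 was at 101 and 99.3 CPM in nt and at 5.86 and 39.8 in siWdr5, and the mitochondrial members had a median of 0.07.

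In siBrca1 and siBard1 at day 6, 0 of the 93 members were called in either direction. In siBrca1 the background was 0% higher and 0% lower, as limma called 0 of all genes, with 1123 at an unadjusted p under 0.05, and 0 members had an unadjusted p under 0.05. In siBard1 it was 0.0784% higher and 0% lower at the adjusted mark. There 5 of the 93 members had an unadjusted p under 0.05, and the share of all genes at that looser mark is not given here. Changes of members ran from -0.35 to 0.39 in siBrca1 and from -0.64 to 0.35 in siBard1, and voom weights on reads recovered from the table called 0 members in both. The intervals remained wide, and for mt-Co1 in siBrca1 the 95% interval of the log2 fold change was -0.63 to 0.75. Of the lists of surrounding genes, 0 were called in these knockdowns, and siWdr5 had 2 higher and 2 lower genes of mitochondrial gene expression, 4 lower assembly factors, and 0 regulators and 0 other electron transport genes called.

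A direct contrast between siBrca1 and siWdr5 at day 6, added after the data were seen, gave 5 members higher in siBrca1 and 0 lower, against 1.35% and 1.5% of all genes. They were mt-Nd6 with 379 and 381 CPM against 208 and 164 (1.04, SE 0.15, adjusted p = 0.0223), mt-Nd2 (0.80, adjusted p = 0.0470), Cox6c (0.60), Ndufs4 (0.58) and Uqcrc2 (0.58). The count was 0 without siWdr5 replicate 1 or without replicate 2, and 2 without siBrca1 replicate 2.

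The course from day 3 to day 6 in nt showed how the members moved without a knockdown. Of the nuclear members 39 rose and 14 fell, and of the mitochondrial members 7 of 7 rose, where 19% of all genes rose and 27.1% fell. The median log2 change was 0.33 for nuclear members, 0.94 for mitochondrial members and -0.07 for all genes. Past a rise of more than 1 on the log2 scale, which 7.8% of all genes passed, were 6 nuclear and 3 mitochondrial members. The split was 47 higher to 9 lower with libraries scaled to nuclear reads, a scale on which the median of all genes moved by 0.15. That scale also drops the library factors, which were 0.985 and 1.01 in nt at day 3 and 1.07 and 1.11 at day 6. Without nt day 6 replicate 1 the number of nuclear calls fell from 53 to 32.

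The nuclear members did not move together. Complex IV had 9 rising and 0 falling genes of 13, complex III 5 and 1 of 8, complex I 19 and 7 of 45, complex V 5 and 3 of 16, and complex II 1 and 3 of 4. The rising genes of complex I include Ndufa4 (0.99), which is counted there by its name only. By role, 35 of the 59 accessory subunits and isoforms rose and 5 fell (median 0.53), whereas 4 of the 19 nuclear core subunits rose and 8 fell (median -0.31), and of the 8 assembly factors 0 rose and 1 fell. No test compared the roles, which differ in transcript length.

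Among the rising nuclear genes, Cox6c, an accessory subunit of complex IV, went from 99.4 and 115 CPM to 243 and 222 (1.12, SE 0.16, adjusted p = 5.31e-05). Cox7b, of the same complex, went from 116 and 121 to 282 and 212 (1.05, SE 0.19, adjusted p = 0.000336). Cox7a1 had the largest fitted rise at a low level, from 0.80 and 1.11 CPM to 2.22 and 1.89 (1.13, SE 0.33, adjusted p = 0.0113), while its ubiquitous counterpart Cox7a2 went from 107 and 106 to 247 and 189 (1.02). The muscle form therefore stayed a small part of this pair at both days. Cox4i1, Cox5b and Cox6a1 of the same complex were not called, with -0.14, -0.05 and 0.05.

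The falling genes included catalytic subunits. Ndufa10, an accessory subunit of complex I (chr1:92439010-92473860, minus strand), went from 145 and 154 CPM to 78.1 and 73.3 (-0.98, SE 0.11, adjusted p = 9.35e-06). Atp5a1, the alpha subunit of the ATP synthase, went from 842 and 867 to 495 and 511 (-0.76, SE 0.11, adjusted p = 5.94e-05), and Atp5b, the beta subunit, from 1378 and 1386 to 976 and 944 (-0.53). Ndufa8, of complex I, went from 69.2 and 73.6 to 48.3 and 37.3 (-0.75, SE 0.15, adjusted p = 0.000692). Within complex II, Sdha (-0.56), Sdhb (-0.58) and Sdhc (-0.39) fell while Sdhd rose from 134 and 136 to 195 and 173 (0.44). The libraries of the days did not overlap in any gene of this paragraph with values given.

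**Figure D3:**
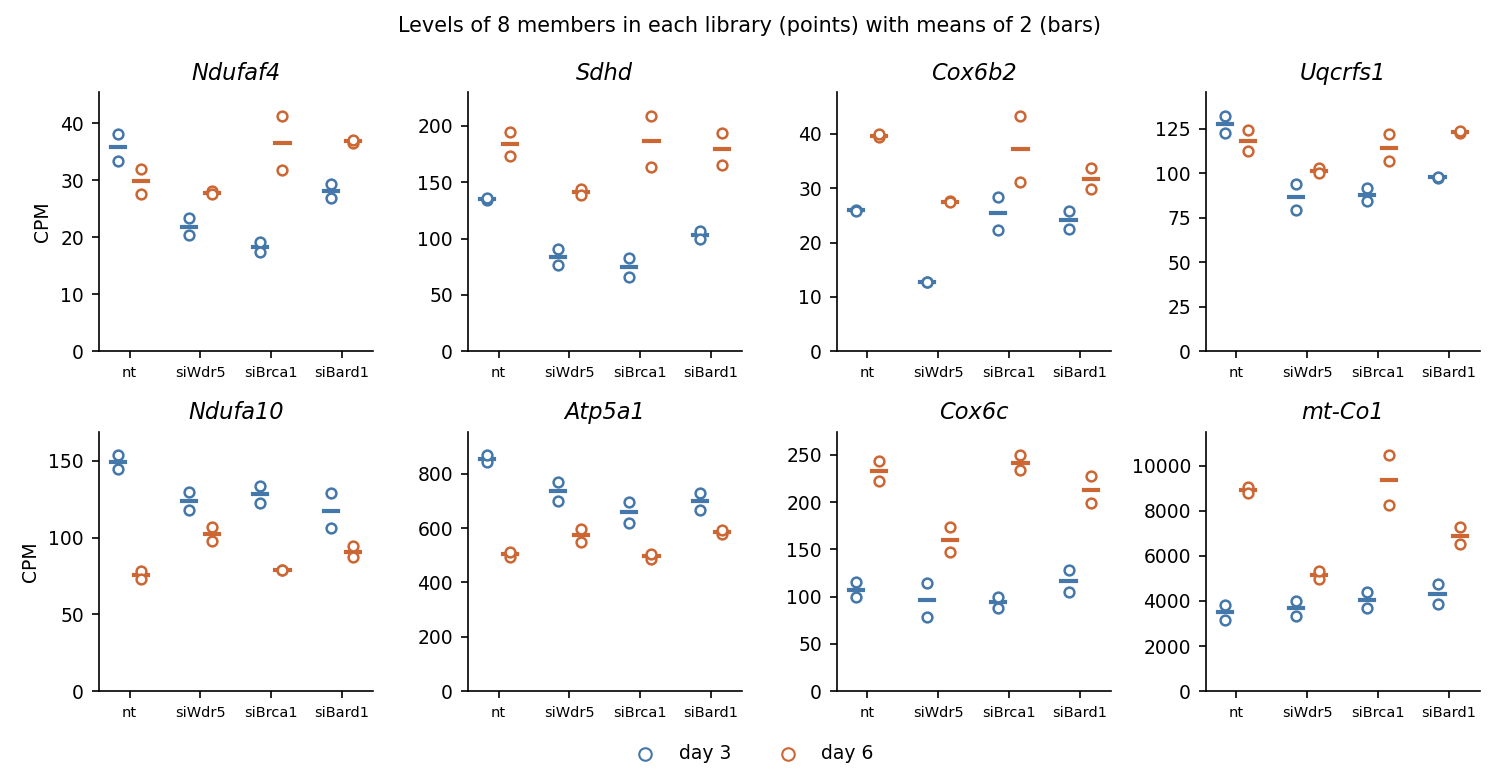
Points are CPM in each library and bars the means of 2 libraries for 8 members, with day 3 in blue and day 6 in orange and the siRNA on the horizontal axis. Ndufaf4 and Sdhd are low in siWdr5 and siBrca1 at day 3, Cox6b2 is low in siWdr5, Ndufa10 and Atp5a1 are lower and Cox6c higher at day 6 in nt, and mt-Co1 is 4985 and 5345 CPM in siWdr5 at day 6 against 9062 and 8799 in nt.

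The mitochondrial members all rose in nt. The gene mt-Co1, the catalytic subunit of complex IV, went from 3815 and 3171 CPM to 9062 and 8799 (1.36, SE 0.21, adjusted p = 8.87e-05), mt-Nd6 from 165 and 115 to 350 and 300 (1.23, SE 0.16, adjusted p = 2.76e-05) and mt-Cytb from 1742 and 1536 to 3638 and 3088 (1.03, SE 0.22, adjusted p = 0.00135). The others had log2 changes of 0.94 (mt-Nd4), 0.89 (mt-Nd2), 0.87 (mt-Nd1) and 0.78 (mt-Nd5). The genes with no window shared elsewhere, mt-Nd1 and mt-Nd6, rose as did those with many. The number called without 1 library was 6 to 7 of 7.

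As a share of library reads, the mitochondrial members together took 0.805% to 1.37% at day 3 (median 0.959%) and 1.18% to 2.68% at day 6 (median 1.78%). Day 6 was higher by 0.831 percentage points in the mean over the 4 siRNA groups, with p = 0.00154 in an exact two-sided permutation test over libraries within the groups, the smallest that its 1296 arrangements can give. The days did not overlap in 4 of 4 groups. In nt the share was 0.954% (Wilson 95% interval 0.949% to 0.959%) and 0.817% at day 3, and 2.13% (2.12% to 2.14%) and 2.05% at day 6, and these intervals cover counting error only. In siWdr5 it was 0.805% and 0.964% at day 3 and 1.18% and 1.26% at day 6, so that the day 6 libraries stood above day 3 but below every other day 6 library. With Gm26917 left out of the denominator, the difference was 1.02 percentage points.

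The nuclear members together took 0.704% to 0.914% of reads at day 3 and 0.910% to 1.12% at day 6, a mean difference of 0.215 percentage points (exact permutation p = 0.00154, no overlap in 4 of 4 groups). On the deposited CPM scale, a comparison added after the data were seen, the summed nuclear level was 8880 and 9078 CPM at day 3 and 10513 and 9033 at day 6 in nt, where the days overlapped, and over the groups day 6 was higher by 1540 CPM (exact permutation p = 0.00309, no overlap in 3 of 4 groups). The mitochondrial sum in nt was 9688 and 8104 CPM at day 3 and 19928 and 18431 at day 6 on that scale, with no overlap in 4 of 4 groups. The ratio of mitochondrial to nuclear reads was 0.893 to 1.65 at day 3 and 1.27 to 2.81 at day 6 (exact permutation p = 0.00772), without overlap in 3 of 4 groups. The mitochondrial share thus grew more than the nuclear one. Knockdowns were set beside nt as values, since 2 against 2 libraries cannot go below an exact p of 0.333.

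**Figure D4:**
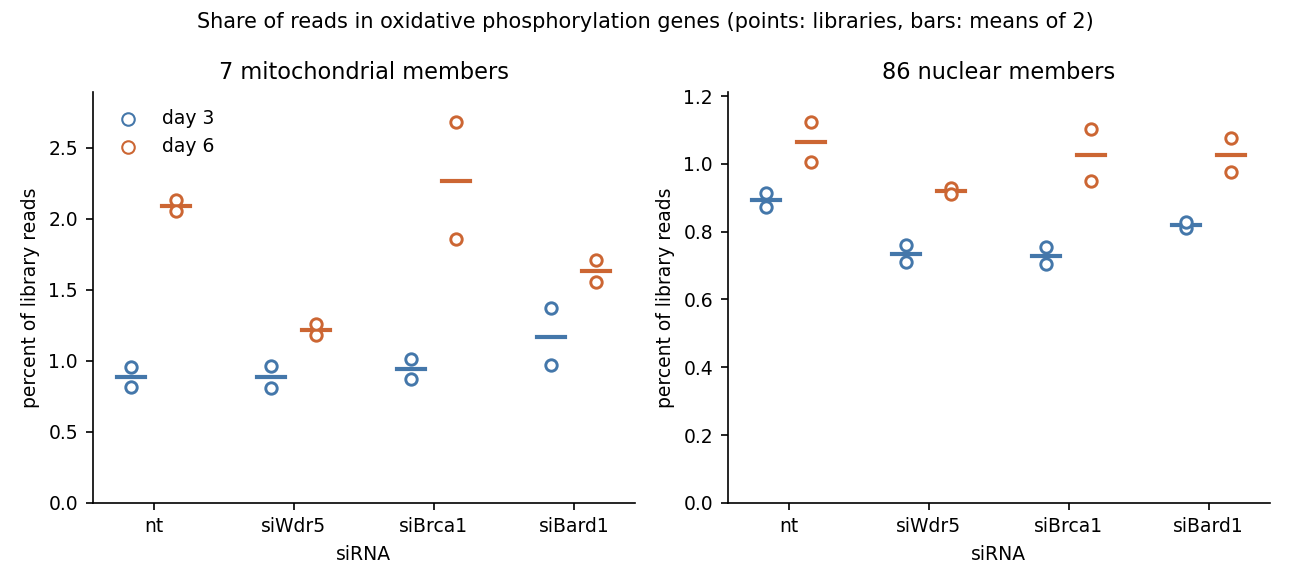
Each point is the percent of a library's reads in the 7 mitochondrial members (left) or the 86 nuclear members (right), with bars for means of 2 libraries and colours for the day. Mitochondrial shares lie between 0.805% and 1.37% at day 3 and between 1.18% and 2.68% at day 6, and the siWdr5 libraries are the lowest of day 6 in both panels.

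The course was also followed within each knockdown, an analysis added after the data were seen that uses separate libraries. In siWdr5, 43 nuclear members rose and 1 fell (background 14.9% and 10.4%), in siBrca1 49 rose and 10 fell (20.5% and 28.9%), and in siBard1 48 rose and 2 fell (17% and 17.7%). The medians were 0.44, 0.52 and 0.47. Leaving out 1 library left 18 to 29 members called in siWdr5, and 32 in siBard1 without day 6 replicate 1. Mitochondrial members rose in 2, 7 and 3 of 7 cases and fell in 0. Higher at day 6 in all 4 siRNA groups were 29 of the 86 nuclear members and 2 of the 7 mitochondrial ones, mt-Nd1 and mt-Nd6, and 0 members were lower in all 4. Of all genes tested 7.36% were higher and 6.67% lower in all 4, and of those below 1000 bases 15.2% and 4.17%, against 33.7% and 0% of the nuclear members. The 29 held Sdhd of complex II, 4 genes of complex III and 6 of complex IV, among them Uqcr10, Uqcrh, Cox6c, Cox7a2, Cox7b and Cox7c. The fall of Ndufa10 was called in nt, siBrca1 (-0.69) and siBard1 (-0.37) and had -0.27 in siWdr5.

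Whether a knockdown's change differed between the days was tested by an interaction of knockdown and day. In siWdr5 2 members had a higher change at day 6 than at day 3 and 0 a lower one (3.4% and 1.03% of all genes), in siBrca1 7 and 0 (10.3% and 10.3%) and in siBard1 0 and 0 (0.0214% and 0.0285%), so that the count in siBrca1 did not exceed the background. At an unadjusted p under 0.05, siWdr5 had 14 nuclear members, 13 higher and 1 lower, and 5 mitochondrial members, all lower. In siBrca1 there were 14 nuclear members, 13 higher and 1 lower, and 0 mitochondrial ones. For siBard1 these were 15 nuclear members, 14 higher and 1 lower, and 5 mitochondrial members, all lower. The nuclear shares of 16.3%, 16.3% and 17.4% lay below the 23.7%, 34.9% and 19.2% of all genes that passed that mark. In siBrca1, Ndufaf4 went from a log2 fold change of -0.96 at day 3 to 0.29 at day 6, with 31.9 and 41.3 CPM against 32.0 and 27.6 in nt, a difference of 1.25 (SE 0.20, adjusted p = 0.00235). Sdhd went from -0.87 to 0.01, with 209 and 163 CPM against 195 and 173 at day 6, a difference of 0.87 (SE 0.20, adjusted p = 0.00814). The others were Ndufa5 (0.998), Uqcrc2 (0.65), Atp5f1, a stalk subunit of the ATP synthase (0.56), Ndufs1, the largest subunit of complex I (0.50), and Uqcrfs1 (0.48). In these genes the siBrca1 libraries lay below nt at day 3 and within or above the range of nt at day 6, apart from Sdhd and Uqcrfs1, where 1 siBrca1 library was below it. Without 1 library the count of 7 was 2 (nt day 3 replicate 1 or siBrca1 day 3 replicate 2), 3 (nt day 6 replicate 2) or 17 (siBrca1 day 6 replicate 2) at its extremes.

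In siWdr5 the interaction was called for Ndufa10, with 118 and 130 CPM against 145 and 154 at day 3 and 97.9 and 107 against 78.1 and 73.3 at day 6 (0.71, SE 0.16, adjusted p = 0.0321), and for Ndufa9, of complex I (0.52, SE 0.14, adjusted p = 0.0489). Both calls were lost when any 1 of the 8 libraries was left out. For the mitochondrial members the interaction in siWdr5 was negative in all 7 cases, from -0.42 to -0.86, and was called in 0 (adjusted p = 0.0917 for mt-Co1). It was negative in all 7 in siBard1 as well, from -0.14 to -0.73, and ran from -0.16 to 0.24 in siBrca1. These contrasts share the nt libraries, in which all 7 rose from day 3 to day 6, so they are not independent of each other.

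The course of the nuclear members went along with transcript length. Members that rose in nt had a median length of 625 bases over their protein-coding transcripts, those that fell 1154 and those not called 651. The length of a gene is the median over all its annotated protein-coding transcripts, whichever are used in these cells. It can misplace single genes, with 651 bases for Ndufs1, the largest subunit of complex I, and 2413 for Ndufb2. Across the 86 members, Spearman's rho between length and log2 change was -0.44, and across 12600 tested genes with a protein-coding transcript it was -0.23, both given as descriptions, since genes of one library are not independent. Among members below 600 bases the median change was 0.60 in 30 genes, against 0.21 for all genes of that length. Between 600 and 1000 bases it was 0.33 in 32 genes against 0.13, and between 1000 and 1600 bases -0.04 in 18 genes against 0.06. The 6 longer members had medians of -0.39 and -0.48 in the bins of 4 and 2 genes, against -0.07 and -0.24. Length moved with the result in all genes, and its part in the members' course was not tested.

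**Figure D5:**
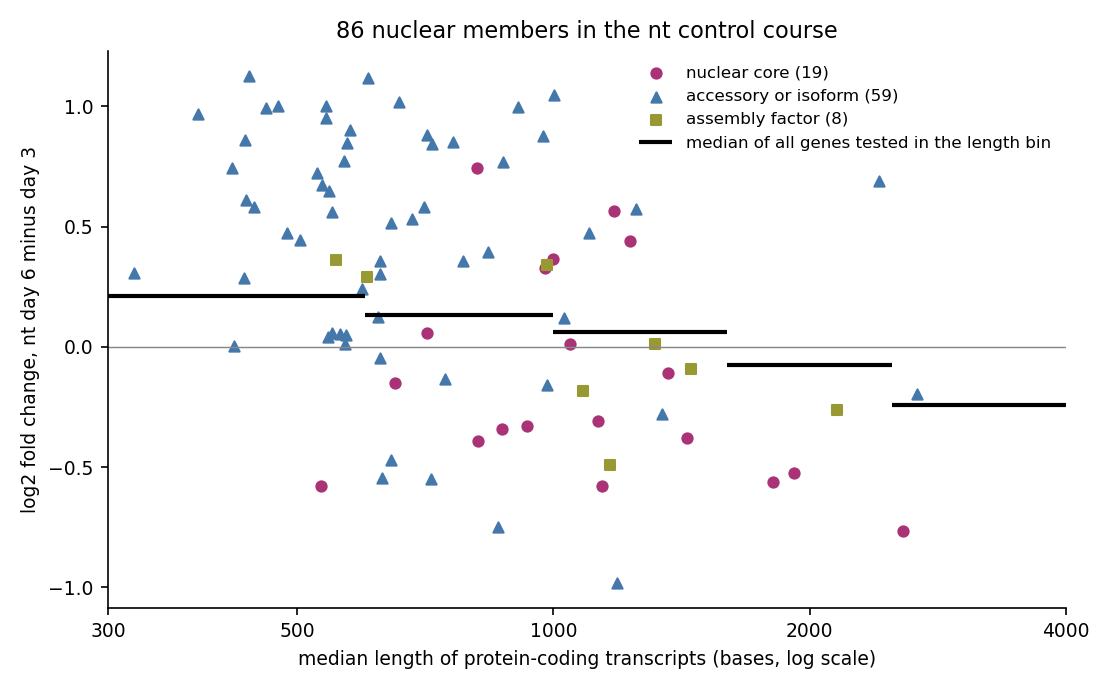
The log2 change from day 3 to day 6 in nt is plotted against the median length of protein-coding transcripts (log axis) for the 86 nuclear members, with marks for nuclear core subunits, accessory subunits or isoforms, and assembly factors, and black lines for the median of all genes tested in each length bin. Short accessory subunits lie mostly above the line of 0.21, and the falling core subunits Atp5a1, Atp5b and Sdha lie among the longest members.

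The regulators and the surrounding genes were read over the same course. Of the 8 biogenesis regulators 0 rose and 5 fell in nt, with Ppargc1b at -1.22, Pprc1 at -0.91, Gabpa at -0.69, Nrf1 at -0.47 and Gabpb1, the partner of GABPA, at -0.44. Of the 24 genes of mitochondrial gene expression 5 rose and 11 fell. Lrpprc, which stabilises mitochondrial mRNA, had -0.89 and Elac2, which processes mitochondrial tRNA ends, -1.04, while Fastkd2 had 0.66 and Tefm, the mitochondrial elongation factor, 0.88. The 7 other electron transport genes had 0 called in either direction. Of the 39 assembly factors 8 rose and 10 fell, among them Pet100, a factor for complex IV, at 1.30, Atpif1, the inhibitor of the ATP synthase, at 1.18 and Ecsit, a factor for complex I, at -1.05. The assembly factor counts were near the 19% of all genes that rose and the 27.1% that fell.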

How the data were processed

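RNA of 16 cultures was sequenced in pairs of 43-base reads after ribosomal RNA depletion (Kapa RNA HyperPrep with RiboErase). The authors deposited 1 table of log2 CPM per gene and library. According to the submitters' processing notes, reads were aligned to mm10 (GRCm38) with STAR 2.5.2b, and log2 CPM was made with edgeR 3.20.9. The counter, its strand setting and the handling of reads with several matches are not given in the sources used here. The 2 libraries of a group are described by the study as independent RNA-seq replicates. Whole reads were recovered from the deposited log2 values to within 0.01 read and gave the library totals of 11169738 to 26832534. The deposited CPM is relative to effective library sizes, which were 0.925 to 1.12 times these totals.

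The log2 values were tested as deposited, with voom on the recovered reads as an alternative, by limma 3.58.1 (R 4.3.3; Python 3.11.15, pandas 2.3.3, numpy 2.4.6 and scipy 1.17.1 were used elsewhere). One mean was fitted per group, with moderation along a trend of mean level and Benjamini-Hochberg adjustment over the 14028 genes whose mean reached a log2 CPM of 0. Knockdowns were compared within the 8 libraries of a day, and the course and the interaction within all 16 libraries. A gene was called at an adjusted p under 0.05, and a stricter rule added an absolute log2 fold change above 1. Fold changes are on the deposited log2 scale, whose prior count shrinks those of low genes. Printed CPM is 2 to the power of the deposited value. The scheme was also run on simulated counts that gave every gene the same relative spread between libraries. That setting is simpler than these data, so it does not bear on the calls reported here.

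The members, the gene lists and the rules were chosen with earlier results of these data known. Named were all mitochondrial members, in each comparison the 3 largest rises and falls among nuclear calls that moved alike in both same-numbered pairs, isoform pairs and core subunits, the called list genes, the targets and the genes around the level threshold. Other genes were named as members of a call count. Alternatives were other filters, a pseudocount of 1 CPM, other scalings, only 4 libraries, no trend, the replicate number as a block, voom on recovered reads, and leaving out each library. The courses within knockdowns, contrasts between knockdowns at day 6, length bins, 43-base windows, the Gm26917 denominator, summed CPM and leave-outs of the interaction were added after the data were seen. Lengths, coordinates and windows came from GENCODE mouse release 21 (GRCm38), and promoters from RefSeq (GRCm38.p6).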

Additional observations from a re-analysis of the deposited data

Results flagged for a closer look

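In 9 cases the change of a member against nt differed between day 6 and day 3 in the test of that difference (limma interaction, adjusted over all genes tested). In siBrca1 the day 6 change exceeded the day 3 change by 1.251 on the log2 scale for Ndufaf4, 0.9981 for Ndufa5, 0.8739 for Sdhd, 0.6546 for Uqcrc2, 0.5602 for Atp5f1, 0.4952 for Ndufs1 and 0.4799 for Uqcrfs1. Of these, Ndufaf4 and Sdhd stayed past the threshold in all 10 alternatives run (the replicate block, median centring and 8 fits that each left out 1 library). In siWdr5 the differences were 0.7082 for Ndufa10 and 0.5228 for Ndufa9, and neither stayed past the threshold without any 1 of the 8 libraries. At day 6 the siRNA targets themselves passed no test against nt in their own knockdown.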

How the results depend on the processing

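With 2 libraries per group the counts of calls moved with the processing and with single libraries. Leaving out 1 library cannot reverse the sign of a gene whose groups do not overlap, so kept signs are no separate check there. No alternative reversed the sign of a called member that is named, and among their values outside the leave-outs 315 kept their side of the threshold, 24 lost and 11 gained a call. In siWdr5 at day 3 the 22 nuclear calls became 43 when scaled to nuclear reads, 45 with only the 4 libraries compared and 14 without a trend, and the 0 mitochondrial calls became 1 after median centring, 1 when scaled to nuclear reads, 3 with 4 libraries and 1 with voom. The 35 nuclear calls in siBrca1 became 21 without a trend. In siBard1 the 9 nuclear calls became 2 without a filter, 2 when scaled to nuclear reads, 22 with 4 libraries and 0 without a trend, and its 1 mitochondrial call became 0 without a filter, 2 when scaled to nuclear reads, 2 with 4 libraries and 0 without a trend. In siWdr5 at day 6 the 12 nuclear calls became 20 with 4 libraries and 2 without a trend, and the 2 mitochondrial calls became 4 when genes tested had to reach a mean log2 CPM of 2, 5 when scaled to nuclear reads and 5 with voom. Of members called between knockdowns at day 3, siBrca1 against siWdr5 (4) gave 1 without a filter, 2 with 4 libraries and 1 without a trend. The contrast siBrca1 against siBard1 (7) gave 1 without a filter, 17 when scaled to nuclear reads, 1 with 4 libraries and 0 without a trend. For siWdr5 against siBard1 (3) the counts were 1 without a filter, 5 after median centring, 20 when scaled to nuclear reads, 7 with 4 libraries and 1 without a trend. At day 6, siBrca1 against siWdr5 (5) gave 1 without a filter, 2 with 4 libraries and 0 without a trend. The siWdr5 interaction (2) gave 1 after median centring. Scaling to nuclear reads also dropped the library factors of the deposited scale, and the cause of these shifts was not tested.

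Leaving out 1 library gave 8 to 16 nuclear and 0 to 1 mitochondrial calls in siWdr5 at day 3, 15 to 38 and 0 to 2 in siBrca1, 0 to 12 and 0 to 1 in siBard1, 0 to 4 and 0 to 1 in siWdr5 at day 6, and 32 to 51 and 6 to 7 in the nt course. Members called were 18 to 29 in the siWdr5 course, 32 to 46 in the siBard1 course, 1 to 11 in siBrca1 against siWdr5 at day 3, 0 to 13 in siBrca1 against siBard1, 1 to 2 in siWdr5 against siBard1, 0 to 7 in siBrca1 against siWdr5 at day 6, 0 to 0 in the siWdr5 interaction and 2 to 17 in the siBrca1 interaction. A group left with 1 library was assumed to vary like the others.

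The replicate numbers entered the rule for naming genes and, of the fits, the block alone, as no source says that a number marks the same experiment in every group. Deviations of same-numbered libraries from their group means correlated between -0.09 and 0.07 at day 3 and between -0.07 and 0.26 at day 6. With the replicate block the calls were 2 mitochondrial in siWdr5 at day 3, 14 nuclear and 2 mitochondrial in siBard1 at day 3, 19 nuclear in siWdr5 at day 6, 5 members in siWdr5 against siBard1 at day 3, 8 in siBrca1 against siWdr5 at day 6 and 4 in the siWdr5 interaction.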
